A study of Homo sapiens with 12 samples.

Results

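Transcripts of 10 genes of the ATF4 amino acid stress response (ATF4, DDIT3, ASNS, PSAT1, PHGDH, SHMT2, TRIB3, CHAC1, SESN2 and DDIT4) were followed by RNA sequencing in HT1080 cells, a human fibrosarcoma line with the genotype given as wt. The genes were taken as a fixed list by name, which was chosen with earlier results of these data known. All 10 were listed and tested in both tables of the series, out of 16633 genes listed in either table and 15459 listed in both. One table holds 3 libraries of cells given 40 nM PMA (phorbol 12-myristate 13-acetate, a phorbol ester that activates protein kinase C) for 24 h and 3 control libraries (controls 1 to 3). The other holds 3 libraries of cells given 40 µg/mL ConA (concanavalin A, a plant lectin that binds mannose-containing glycans) for 24 h and 3 control libraries of its own (controls 4 to 6). The cells of the series were grown in biotin-depleted medium, and 3 days after seeding they were moved to biotin-depleted medium with 1% serum, in which the treatments were given. The controls are labelled only as controls, so whether they received a vehicle is not known. The treatments were part of a study of how the protein neighbours of TIMP2 change with the state of the cells. Nothing in the labels says that replicate libraries came from separate cultures, so p-values measure the spread between these libraries, which may be technical.

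Values are the normalized counts per gene as deposited, which resemble read counts divided by a factor per library. Whether gene length entered is not stated, so a gene is compared between libraries of its table and not with other genes. Each table was normalized on its own, so levels in the PMA table and in the ConA table are set side by side without a test. The estimated reads on genes were 33642786 to 45581099 per library. Replicate libraries differed by more than read sampling gives, with a mean squared difference of 3.52 to 16.5 times the sampling variance, so the spread between libraries served as the error. All 8 mesenchymal markers checked were listed in every group, although NT5E was low with means of 6.48 to 56.0 normalized counts. Their summed level was 743573 to 820174 in the ConA controls and 577449 to 624187 with ConA, lower without overlap, with 5 of the 8 lower and 2 higher at an adjusted p of 0.05 or less. It was 597426 to 620109 in the PMA controls and 620846 to 650265 with PMA, where 4 were lower and 3 higher. Of 5 epithelial markers 1 was listed in the PMA table and 4 in the ConA table. Of 10 T and NK cell markers, 10 were listed in the PMA table and 3 in the ConA table. Their summed level was 1135 to 1266 normalized counts in the PMA controls and 4099 to 4607 with PMA, and 427 to 559 in the ConA controls and 4639 to 5454 with ConA. IL7R, a cytokine receptor subunit, made up most of the treated sums, with 2977 to 3100 normalized counts with PMA and 4596 to 5406 with ConA. The other 9 markers of the PMA table summed to 814 to 918 in the controls and 999.5 to 1631 with PMA, and 7 of the 10 were higher at an adjusted p of 0.05 or less. Besides IL7R, the ConA table listed CD3D and LCK of this list, which summed to 34.1 to 52.0 in the controls and 39.5 to 48.1 with ConA; the 7 others, CD3E and CD3G among them, were not listed there. The part of these markers in the results was not tested.

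ATF4 is the transcription factor at the centre of the integrated stress response. Kinases that sense amino acid shortage, unfolded protein in the endoplasmic reticulum, double-stranded RNA or loss of haem phosphorylate the translation factor eIF2. General translation then falls, while ATF4 mRNA, which is held back by upstream reading frames, is translated more. ATF4 pairs with other bZIP proteins, in particular C/EBP factors, on C/EBP-ATF response elements and switches on genes of amino acid synthesis, import and tRNA charging. It also switches on DDIT3 (the factor CHOP) and regulators that feed back on growth and on ATF4 itself. Since ATF4 is regulated in large part by translation, its mRNA level is not a measure of its protein level.

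Promoter sequence is shown for 3 of the genes, taken from RefSeq on the build GRCh38.p14 as the 250 bases before an annotated start. ASNS and CHAC1 are shown because their windows alone, of the 14 windows of the 9 genes that matched a RefSeq entry (SHMT2 did not), held the core of the C/EBP-ATF response element. DDIT3 is shown because it alone of the 9 genes held the core of an AP-1 site, which was searched after the values had been seen. Capitals mark the matches. The windows are ASNS at chr7:97872409-97872658 on the minus strand, CHAC1 at chr15:40953221-40953470 on the plus strand and DDIT3 at chr12:57520515-57520764 on the minus strand, each read in the direction of transcription.
ASNS: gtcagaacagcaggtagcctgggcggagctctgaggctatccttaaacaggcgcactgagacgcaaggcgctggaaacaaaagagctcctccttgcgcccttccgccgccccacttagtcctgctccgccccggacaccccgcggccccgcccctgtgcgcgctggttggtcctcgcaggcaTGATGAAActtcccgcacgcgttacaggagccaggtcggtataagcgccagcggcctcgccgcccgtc
CHAC1: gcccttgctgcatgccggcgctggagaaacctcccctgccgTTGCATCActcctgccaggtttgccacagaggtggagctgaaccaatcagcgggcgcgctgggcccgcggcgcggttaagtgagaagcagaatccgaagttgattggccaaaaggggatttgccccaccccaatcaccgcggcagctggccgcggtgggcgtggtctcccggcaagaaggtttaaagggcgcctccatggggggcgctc
DDIT3: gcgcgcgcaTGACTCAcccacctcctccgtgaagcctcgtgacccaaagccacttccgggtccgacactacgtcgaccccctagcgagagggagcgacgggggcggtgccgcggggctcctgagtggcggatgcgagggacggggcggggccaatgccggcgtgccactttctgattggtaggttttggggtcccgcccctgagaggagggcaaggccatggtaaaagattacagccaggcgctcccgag
The core was searched as TGATGNAA on both strands and was found in 3.14% of all 35116 RefSeq windows of this length. In ASNS it reads TGATGAAA and begins 68 bases before the start. In CHAC1 it lies on the other strand, where the printed strand reads TTGCATCA and begins 209 bases before the start. A core of the AP-1 site, TGANTCA, reads the same on both strands. It was found in 6.57% of the windows and, among the 9 genes, in DDIT3, where TGACTCA begins 241 bases before the start. Such a match is a run of letters, not a measured binding site, and the windows that lack one say nothing of more distant elements.

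With ConA, transcripts of 10 of 10 genes were lower than in the controls. The falls ran from 79.3% of the control level for DDIT3 to 28.9% for CHAC1, and the median log2 change was -1.07, where the median of all 15139 genes tested was -0.0022. For each of the 10 the highest ConA library was lower than the lowest control, which held for 34.4% of all genes (the reverse held for 34.9%, and 69.3% showed no overlap in either direction). All 10 had an adjusted p of 0.05 or less from limma with a lower level, as did 32.5% of all genes tested (65.3% passed in either direction). ASNS, PSAT1, TRIB3, CHAC1 and DDIT4 also passed the stricter call, a log2 change of 1 or more in size at an adjusted p of 0.0001 or less, which 2.88% of all genes passed as lower, 5.83% as higher and 8.71% in either direction. In bulk RNA, fewer cells of a type and less RNA per cell cannot be told apart.

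With PMA the same 10 transcripts moved in both directions. DDIT3, SHMT2, TRIB3 and SESN2 rose and ASNS, PSAT1, PHGDH and DDIT4 fell at an adjusted p of 0.05 or less, which 32.8% of all 15153 genes passed as higher, 30.5% as lower and 63.3% in either direction. ATF4 and CHAC1 did not pass in the main fit, and ATF4 passed under no setting tried. CHAC1 passed as lower under quantile normalization, median centring or equal library totals, and without PMA control 3 or PMA library 3. In each of these settings 9 of the 10 passed. The median log2 change of the 10 was -0.02, against 0.0029 over all genes tested. PMA libraries stood apart from their controls for 9 of the 10, 4 of them higher and 5 lower, where 67.9% of all genes stood apart, 34.8% higher and 33.1% lower. SESN2 alone reached the stricter call, at a log2 fold change of 1.00 that lies on the threshold, and 4.03% of all genes passed it as higher, 4.61% as lower and 8.65% in either direction. ASNS, with the smallest change among those that passed, no longer passed the 0.05 threshold when all 12 libraries were fitted together, where 7 of the 10 did.

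**Figure D1:**
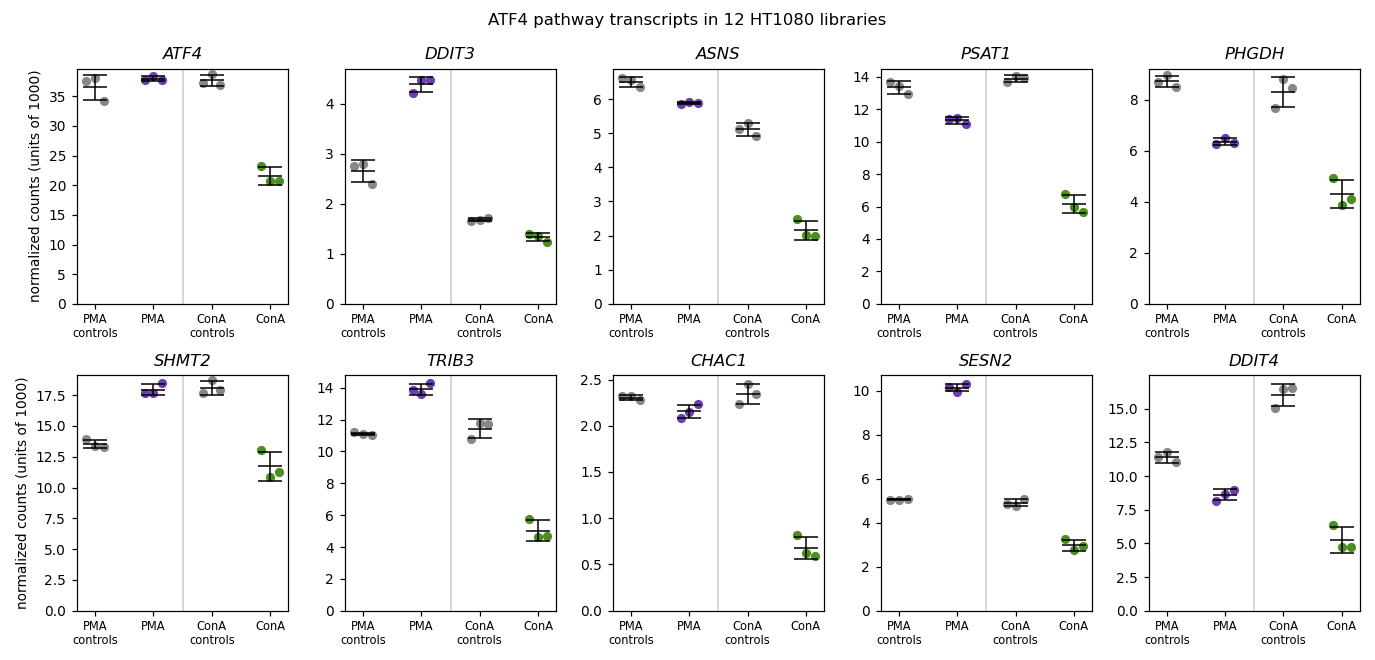
Normalized counts (axis in units of 1000, from 0) of the 10 transcripts in the 12 libraries, with 1 panel per gene and 4 groups of 3 libraries. Points are libraries and bars give the mean ± SD. The 3 ConA libraries lie under the 3 ConA controls in every panel, while PMA libraries lie above their controls for DDIT3, SHMT2, TRIB3 and SESN2.

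ATF4 mRNA, which encodes the factor itself, was at 37509.7, 38024 and 34150.5 normalized counts in PMA controls 1 to 3 and at 37814, 38441 and 37719.5 in the PMA libraries. The groups overlapped, since control 2 exceeded PMA libraries 1 and 3. The log2 fold change was 0.06 (95% confidence interval -0.05 to 0.16, adjusted p = 0.305), so a change of the size seen with ConA lay outside the interval. Its sign turned under quantile normalization (-0.092) and with equal library totals (-0.064). In the ConA table the controls read 37299, 38745 and 36962 and the ConA libraries 23313, 20717 and 20650.1. ConA libraries were thus all lower, at 57.2% of the control mean (log2 fold change -0.81, standard error 0.06, adjusted p = 3.43e-08).

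DDIT3 encodes CHOP, a bZIP factor induced by ATF4 that can promote cell death in prolonged stress. In the PMA table it measured 2759.5, 2803 and 2401 in the controls and 4213, 4481 and 4464 with PMA. PMA libraries were all higher, at 165% of the control mean (log2 fold change 0.73, standard error 0.06, adjusted p = 7.68e-07). In the ConA table it measured 1652, 1673 and 1720.0 in the controls and 1399, 1363 and 1236 with ConA. This was the smallest fall of the 10 with ConA, at -0.34 (standard error 0.06, adjusted p = 0.000306), and the libraries did not overlap. The control means of DDIT3 were 2654 ± 220.4 (SD, n = 3) in the PMA table and 1682 ± 35.0 (SD, n = 3) in the ConA table. The tables were normalized apart, so whether the control levels differ was not tested. In GENCODE 29 DDIT3 overlaps exons of the methionyl-tRNA synthetase gene MARS1 by 355 bases on the opposite strand and of MBD6 by 58, and an unnamed gene model on its own strand by 105. ASNS overlaps a processed transcript on its own strand by 1985 bases. Whether counting used the strand is not given in the sources used here. MARS1, named for this overlap, changed by 0.44 with PMA (adjusted p = 1.32e-06) and by -0.47 with ConA (adjusted p = 1.52e-05), in the same directions as DDIT3. These were also the directions of most of the 13 cytosolic aminoacyl-tRNA synthetases read below, 10 higher with PMA and 12 lower with ConA in the main fits. Whether reads shared by the 2 genes contributed was not tested.

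The 4 enzymes of amino acid synthesis were each lower with ConA. ASNS, asparagine synthetase, makes asparagine from aspartate and glutamine. Its controls in the ConA table read 5109.6, 5302 and 4918 and the ConA libraries 2483, 2005 and 1988. The highest ConA library was far under the lowest control (log2 fold change -1.25, standard error 0.08, adjusted p = 5.51e-09). In the PMA table the controls read 6618, 6567 and 6345 and the PMA libraries 5863, 5906 and 5879. PMA libraries stood just under the controls without overlap, at 90.4% of their mean (log2 fold change -0.15, standard error 0.04, adjusted p = 0.00385).

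PHGDH and PSAT1 catalyse the opening steps of serine synthesis from a glycolytic intermediate. PHGDH read 8683, 8952 and 8494 in the PMA controls and 6262, 6506 and 6285 with PMA. It read 7654, 8796 and 8463 in the ConA controls and 4932, 3872 and 4098 with ConA. PHGDH was thus lower with each treatment, at 72.9% of the control mean with PMA (log2 fold change -0.46, adjusted p = 9.45e-07) and at 51.8% with ConA (log2 fold change -0.95, adjusted p = 1.50e-07). The ConA value lay just short of the stricter call and passed it without ConA library 1 (-1.06), without ConA control 4 (-1.01) and with median centring (-1.02). PSAT1 read 13705, 13431 and 12936 in the PMA controls and 11386, 11463 and 11077 with PMA. It read 13677, 14054 and 13946 in the ConA controls and 6764, 5998 and 5681 with ConA. Its fall was small with PMA (log2 fold change -0.24, adjusted p = 0.000178), and with ConA the level was at 44.3% of the control mean (log2 fold change -1.18, standard error 0.06, adjusted p = 9.91e-10).

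SHMT2, the mitochondrial enzyme that turns serine into glycine and a folate-bound one-carbon unit, differed from the other 3 enzymes in its direction with PMA. It read 13932, 13413 and 13315 in the PMA controls and 17677, 17694 and 18499 with PMA. The PMA libraries were all above the controls (log2 fold change 0.41, standard error 0.04, adjusted p = 2.84e-06). The ConA controls read 17656, 18692 and 17886 and the ConA libraries 13038, 10816 and 11278. All ConA libraries were lower, at 64.8% of the control mean (log2 fold change -0.63, standard error 0.07, adjusted p = 1.28e-06). SHMT2 overlaps an antisense transcript by 427 bases and NDUFA4L2 by 33 on the opposite strand in GENCODE 29. ATF4, ASNS and PSAT1 each have 4 annotated pseudogenes, of which 0 were listed in the tables, so how reads shared with them were assigned cannot be seen.

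Of the 4 remaining genes, which ATF4 induces, CHAC1 encodes an enzyme and the others encode regulators. TRIB3 is a pseudokinase that binds ATF4 and AKT and restrains both. In the PMA table it read 11194, 11083 and 11062 in the controls and 13891, 13579.5 and 14278 with PMA. PMA libraries were all higher, at 125% of the control mean (log2 fold change 0.32, adjusted p = 1.12e-05). In the ConA table it read 10775, 11798 and 11747 in the controls and 5776, 4616 and 4714 with ConA. ConA libraries were all lower, at 44.0% of the control mean (log2 fold change -1.19, adjusted p = 8.55e-09). CHAC1 degrades glutathione in the cytosol. It read 2230.04, 2446 and 2346 in the ConA controls and 816, 628 and 587 with ConA. This was the largest fall of the 10 (log2 fold change -1.80, 95% confidence interval -2.01 to -1.59, adjusted p = 1.64e-09), and 0.548% of all genes tested had a lower value with ConA. In the PMA table CHAC1 read 2319.7, 2319 and 2273 in the controls and 2087, 2148 and 2233 with PMA. The PMA libraries lay under the controls without overlap, but the log2 fold change of -0.10 did not pass the threshold (95% confidence interval -0.19 to -0.0034, adjusted p = 0.0661). Over the alternative settings its adjusted p ran from 0.00077 to 0.342, so that CHAC1 passed as lower in some of them.

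SESN2 and DDIT4 both restrain the growth kinase complex mTORC1, SESN2 as a leucine sensor upstream of it and DDIT4, also named REDD1, through the TSC complex. They moved in opposite directions with PMA. SESN2 read 5053, 5055 and 5095 in the PMA controls and 10190.3, 9947 and 10285 with PMA. The controls lay close together (standard deviation 23.9) and the PMA libraries stood at 200.1% of their mean (log2 fold change 1.00, 95% confidence interval 0.92 to 1.08, adjusted p = 6.14e-10). The rise passed the 0.05 threshold under all settings tried, and its stricter call was lost at a pseudocount of 10 (0.999), with quantile normalization (0.85), median centring (0.99) or equal library totals (0.88). It was also lost without PMA control 1 (0.998), PMA control 2 (0.999), PMA library 1 (0.997) or PMA library 3 (0.99). In the ConA table SESN2 read 4845, 4771 and 5081 in the controls and 3256, 2759 and 2936 with ConA. ConA libraries were all lower, at 60.9% of the control mean (log2 fold change -0.72, adjusted p = 2.27e-07).

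DDIT4 read 11392, 11790.4 and 11008 in the PMA controls and 8154, 8698 and 8950.1 with PMA, so that each PMA library was lower than each control (log2 fold change -0.41, adjusted p = 1.06e-05). The ConA controls read 15057, 16437 and 16549.8 and the ConA libraries 6346, 4711 and 4720.4. With ConA the level was at 32.8% of the control mean (log2 fold change -1.62, 95% confidence interval -1.82 to -1.42, adjusted p = 2.72e-09), a lower value than that of all but 0.872% of the genes tested. DDIT4 overlaps its antisense transcript DDIT4-AS1 by 847 bases in GENCODE 29.

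ConA library 1 had the highest level of its group for 10 of 10 genes, where 37.1% of all genes tested were highest in it. For the 10 genes it lay a median of 0.18 on the log2 scale over the group mean, while over all genes tested its median deviation was -0.0007. ConA libraries 2 and 3 each held the lowest value for 5 of the 10. Without ConA library 1 the log2 changes were larger in size, up to -1.94 for CHAC1 and -1.76 for DDIT4, and 6 in place of 5 genes passed the stricter call. In the PMA table control 3 had the lowest level of its group for 9 of the 10, with a median deviation of -0.04. Of all genes tested, 40.0% were highest in PMA control 3, with a median deviation of 0.005. The share of all genes that were lowest in a library was not computed. ConA changes of the 10 genes kept their direction under all settings tried, and all 10 passed the 0.05 threshold in each. Without a variance trend in limma only PSAT1 passed the stricter call with ConA, and the adjusted p of ASNS, TRIB3, CHAC1 and DDIT4 lay between 0.00013 and 0.000229.

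Both treatments were then set against each other in a single fit of all 12 libraries, by subtracting each gene's ConA change from its PMA change. This difference was positive for 10 of 10 transcripts, with a median of 1.08 on the log2 scale against -0.01 over all 15030 genes tested. All 10 passed an adjusted p of 0.05, as did 30.4% of all genes in this direction, 30.7% in the other and 61.1% in either. SESN2, CHAC1, TRIB3, DDIT4, ASNS, DDIT3 and SHMT2 passed the stricter call, which 3.67% of all genes passed as higher, 6.89% as lower and 10.6% in either direction. SESN2 (difference 1.72, 95% confidence interval 1.56 to 1.87, adjusted p = 1.99e-12) and CHAC1 (1.71, 1.45 to 1.96, adjusted p = 1.93e-09) differed most. In SESN2 the difference came from a rise and a fall, while CHAC1 combined a fall with ConA with a small change with PMA that did not pass in the main fit. PHGDH differed least, at 0.50 (0.29 to 0.71, adjusted p = 0.000332). ATF4 itself differed by 0.86 (0.70 to 1.03, adjusted p = 3.42e-08). The stricter call was lost for DDIT3, ASNS and SHMT2 under quantile normalization (0.99, 0.98 and 0.77) and with equal library totals (0.88, 0.92 and 0.85). It was also lost for DDIT3 without PMA control 3 (0.99) and for SHMT2 without ConA library 2 (0.98), and PSAT1 gained it without ConA library 1 (1.01). For SESN2, CHAC1, TRIB3 and DDIT4 it held under each setting tried. Each treatment was run with its own controls, so that treatment and experiment cannot be told apart in this comparison.

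**Figure D2:**
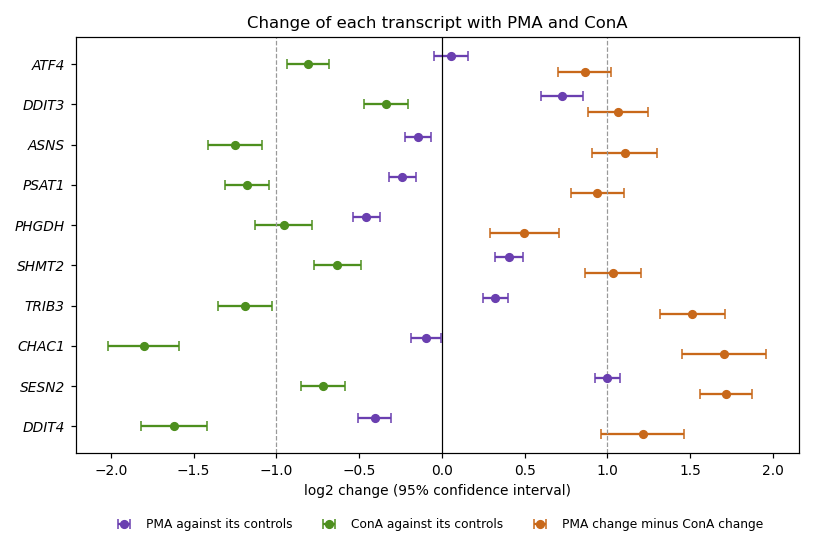
Log2 change of each transcript with its 95% confidence interval, for PMA against its controls (purple), ConA against its controls (green) and the change with PMA minus that with ConA (orange). Dashed lines mark a log2 change of 1 in either direction. The ConA intervals all lie below 0, those for PMA lie on both sides of it and the intervals of the difference all lie above it.

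DDIT3, SESN2, SHMT2 and TRIB3, 4 of the 10 genes (40.0%), were lower with ConA and higher with PMA, each at an adjusted p of 0.05 or less. Among all 4879 genes lower with ConA at this threshold and tested in both tables, 1033 (21.2%) were higher with PMA. The genes nearest to CHAC1, the gene with the largest change of the 10, were sought among 14661 genes tested in both tables by the distance between the pairs of log2 changes. They were MIR600HG (distance 0.03, -0.12 with PMA and -1.80 with ConA), HOXC-AS1 (0.07, -0.07 and -1.87) and RPL23P8 (0.07, -0.17 and -1.79), which are non-coding genes and a ribosomal protein pseudogene.

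**Figure D3:**
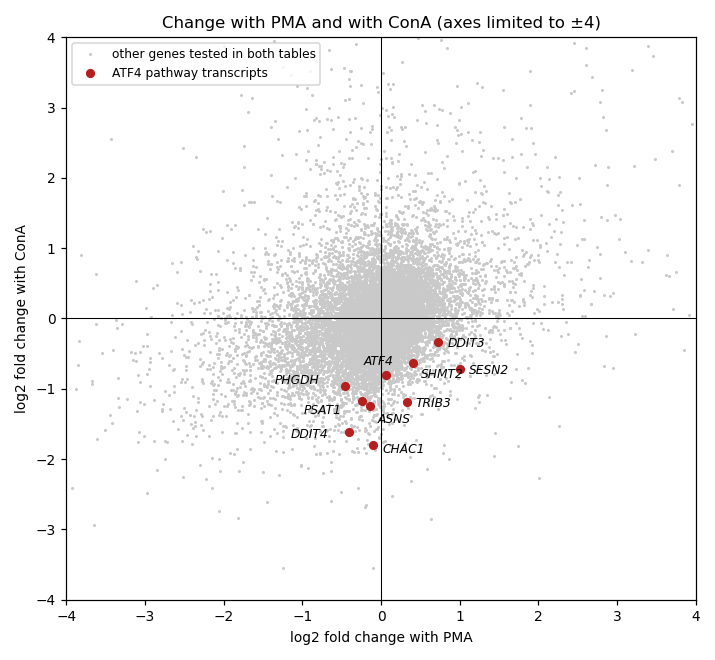
Log2 fold change with PMA (horizontal) against that with ConA (vertical) for genes tested in both tables, drawn within ±4, with the 10 ATF4 pathway transcripts in red. All 10 lie below the horizontal zero line, from -0.34 for DDIT3 to -1.80 for CHAC1, and they spread from -0.46 for PHGDH to 1.00 for SESN2 along the PMA axis.

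Another 74 genes around the pathway were read as lists by role, of which 71 were tested in each table. With ConA 49 of the 71 were lower and 16 higher at an adjusted p of 0.05 or less, where 32.5% of all genes tested were lower and 32.8% higher, and their median log2 change was -0.50. With PMA 21 were lower and 38 higher, with a median of 0.13, a direction that turned under quantile normalization (28 lower and 21 higher) and with equal library totals (27 lower and 21 higher). Of all genes tested with PMA, 30.5% were lower and 32.8% higher. The counts of each list are read against these shares. The stricter call was passed with ConA by 7 as lower and 4 as higher, where 2.88% and 5.83% of all genes passed it, and with PMA by 6 as lower and 3 as higher, where 4.61% and 4.03% did. The counts of higher genes are thus near the shares over all genes.

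Upstream of ATF4, the list of 7 genes for the eIF2 kinases, eIF2 alpha (EIF2S1) and its phosphatase subunits had 3 higher and 3 lower with each treatment. With ConA this count became 2 higher and 4 lower under quantile normalization and 3 higher and 1 lower with equal library totals. EIF2AK2, the kinase PKR that senses double-stranded RNA and is an interferon-induced gene, read 3119.99, 2962 and 2856 in the ConA controls and 9734, 11612 and 11344 with ConA. It thus rose by 1.87 on the log2 scale (standard error 0.07, adjusted p = 1.32e-11), and its log2 change with PMA was -0.28 (adjusted p = 0.0027). PPP1R15A, also named GADD34, guides a phosphatase that reverses eIF2 phosphorylation and is itself a target of the response. It read 6049, 6096 and 5949.8 in the PMA controls and 20294, 20164 and 20489 with PMA, a log2 rise of 1.75 (standard error 0.03, adjusted p = 7.80e-12). With ConA its log2 change was -0.14 (adjusted p = 0.032). These are the largest changes of the list and they belong to different treatments.

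Among the 6 bZIP partners and other stress factors, 3 were higher and 3 lower with ConA, with a median of -0.10. With PMA 3 were higher and 2 lower, with a median of 0.04. ATF5 and ATF3 rose with ConA while ATF4 fell. ATF5, whose mRNA is also translated more under stress, read 1124, 1137 and 1124 in the ConA controls and 3473, 3789.9 and 3862 with ConA (log2 fold change 1.71, adjusted p = 7.32e-12). ATF3, an early stress-induced repressor, read 1029.6, 1043 and 1043 and 2028, 2269 and 2272 (log2 fold change 1.07, adjusted p = 3.09e-09). With PMA, ATF5 rose by 0.44 (adjusted p = 3.30e-05) and ATF3 changed by -0.07 (adjusted p = 0.316). NUPR1, a small stress-induced chromatin protein, fell with PMA from 514, 499.9 and 426 to 85.9, 72.2 and 87.4 (log2 fold change -2.54, adjusted p = 4.78e-09) and changed by -0.91 with ConA (adjusted p = 1.37e-05). The ConA change of NUPR1 passed the stricter call without ConA library 1 (-1.03), without ConA control 4 (-1.01) and under quantile normalization (-1.01). CEBPB, a dimer partner of ATF4, rose with PMA from 4160.2, 4607 and 6428 to 14878, 11672 and 9763 (log2 fold change 1.26, adjusted p = 3.56e-05). Its stricter call was lost without any 1 of PMA control 1 (1.13), PMA control 2 (1.21), PMA library 1 (1.10) or PMA library 2 (1.28), each at an adjusted p above 0.0001, and under quantile normalization, equal library totals, robust moderation or without a variance trend. The log2 change of CEBPB with ConA was 0.20 (adjusted p = 0.0113).

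The 13 further enzymes of serine, one-carbon, proline and transsulfuration metabolism had 11 lower and 1 higher with ConA, with a median of -0.65, and 6 lower and 3 higher with PMA, with a median of -0.18. PYCR1, the last enzyme of proline synthesis, read 4854, 5562 and 5549 in the ConA controls and 1868, 1393 and 1342 with ConA (log2 fold change -1.81, adjusted p = 2.16e-09). It was also lower with PMA, at a log2 fold change of -0.85 (adjusted p = 4.27e-08). CBS and CTH, the enzymes that carry sulfur from homocysteine to cysteine, fell with ConA, with log2 changes of -1.23 (adjusted p = 1.59e-07) and -1.22 (adjusted p = 2.97e-08). CBS was also lower with PMA (log2 fold change -0.49, adjusted p = 0.000348). CTH read 673, 672 and 675 in the PMA controls and 1025, 1039.9 and 982 with PMA, and 581, 546 and 598 in the ConA controls and 267, 238 and 234 with ConA. It was thus higher with PMA (log2 fold change 0.59, adjusted p = 1.54e-06) and lower with ConA. ASS1, which joins citrulline to aspartate for arginine synthesis, fell with PMA from 148, 132 and 103 to 25.5, 36.1 and 45.5 (log2 fold change -1.83, adjusted p = 2.25e-05). Its stricter call was lost without a variance trend and without any 1 of PMA control 1 (-1.72), PMA control 2 (-1.80) or PMA library 2 (-1.86). PYCR1 and CBS lost theirs without a variance trend, with adjusted p-values of 0.000173 and 0.000666. The log2 change of ASS1 with ConA was -0.52 (adjusted p = 0.00438).

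Transcripts for amino acid import and tRNA charging were mostly lower with ConA. Of 9 amino acid transporters, 8 were lower with ConA and the remaining 1 did not pass, with a median of -0.75, and 4 were lower and 4 higher with PMA. SLC7A11, the cystine importer, read 4011, 3545 and 3917 in the ConA controls and 1560.1, 1626 and 1275 with ConA (log2 fold change -1.37, adjusted p = 4.90e-09, above the stricter threshold at 0.00018 without a variance trend). It was also lower with PMA, at a log2 fold change of -0.80 (adjusted p = 3.30e-08). Of 13 cytosolic aminoacyl-tRNA synthetases, 12 were lower and 1 higher with ConA, with a median of -0.65. The exception was WARS1, the tryptophanyl-tRNA synthetase and a known interferon-induced gene. It read 15519.6, 16004 and 15579 in the ConA controls and 36553, 36457 and 38426 with ConA (log2 fold change 1.24, standard error 0.05, adjusted p = 6.11e-11). With PMA 10 of the 13 synthetases were higher and the others did not pass, with a median of 0.17, and this count depended on the scaling: it was 4 higher and 4 lower under quantile normalization and 6 higher and 1 lower with equal library totals. The difference between the treatments was positive for 12 of the 13 at an adjusted p of 0.05 or less and negative for WARS1, with a median of 0.88.

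Of 7 secreted and other targets, 6 were lower and 1 higher with ConA, with a median of -0.79. INHBE, a subunit of activin E, fell with both treatments. It read 1009, 1031 and 1009 in the PMA controls and 244, 228 and 213 with PMA, and 1453, 1615 and 1711 in the ConA controls and 516, 422 and 300.1 with ConA. The log2 changes were -2.15 (adjusted p = 3.36e-10) and -1.98 (adjusted p = 3.04e-08, and 0.000423 without a variance trend). VLDLR, a lipoprotein receptor, fell with ConA by a log2 change of -1.15 (adjusted p = 9.64e-09, and 0.000157 without a variance trend), and its change with PMA was 0.13 (adjusted p = 0.0546). With PMA 3 of the 7 were higher and 2 lower.

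Relatives of SESN2 and TRIB3 were among the larger changes with PMA. SESN3, a sestrin related to SESN2, read 798, 761 and 1065 in the PMA controls and 144, 144 and 164 with PMA, and 1585, 1556 and 1539.7 in the ConA controls and 577, 599 and 549 with ConA. It thus fell with PMA (log2 fold change -2.51, adjusted p = 8.32e-09), with which SESN2 rose, and with ConA (-1.44, adjusted p = 1.71e-10). Of the TRIB3 relatives, TRIB1 rose with PMA from 1503, 1427 and 1574 to 4089, 4008 and 3992 (log2 fold change 1.42, adjusted p = 3.29e-10). TRIB2 fell with PMA from 1053, 971 and 1102 to 286, 326 and 296 (log2 fold change -1.78, adjusted p = 2.69e-09). With ConA, TRIB2 was also lower (log2 fold change -0.91, adjusted p = 9.03e-08), and TRIB1 changed by -0.12 (adjusted p = 0.126). Over the 5 paralogues tested, 2 were higher and 3 lower with PMA, and 1 was higher and 3 lower with ConA.

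The ATF6 and XBP1 arm of the unfolded protein response, which raises chaperones of the endoplasmic reticulum, served as a neighbouring programme. Whether ATF4 also acts on genes of this list was not tested. Of its 11 genes, 6 were higher and 3 lower with ConA, with a median of 0.19, where the 10 ATF4 pathway transcripts were all lower. With PMA 10 were higher and 1 lower, with a median of 0.19, a count that fell to 2 higher and 2 lower under quantile normalization and to 2 higher and 1 lower with equal library totals. The difference between the treatments had 3 higher and 3 lower, which became 3 higher and 5 lower under quantile normalization and with equal library totals. HERPUD1 had the largest ConA change of the 11 in size, at -0.84 (adjusted p = 6.71e-08), and changed by 0.40 with PMA (adjusted p = 2.49e-06). Its difference of 1.24 (adjusted p = 3.90e-10) alone of the list passed the stricter call.

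**Figure D4:**
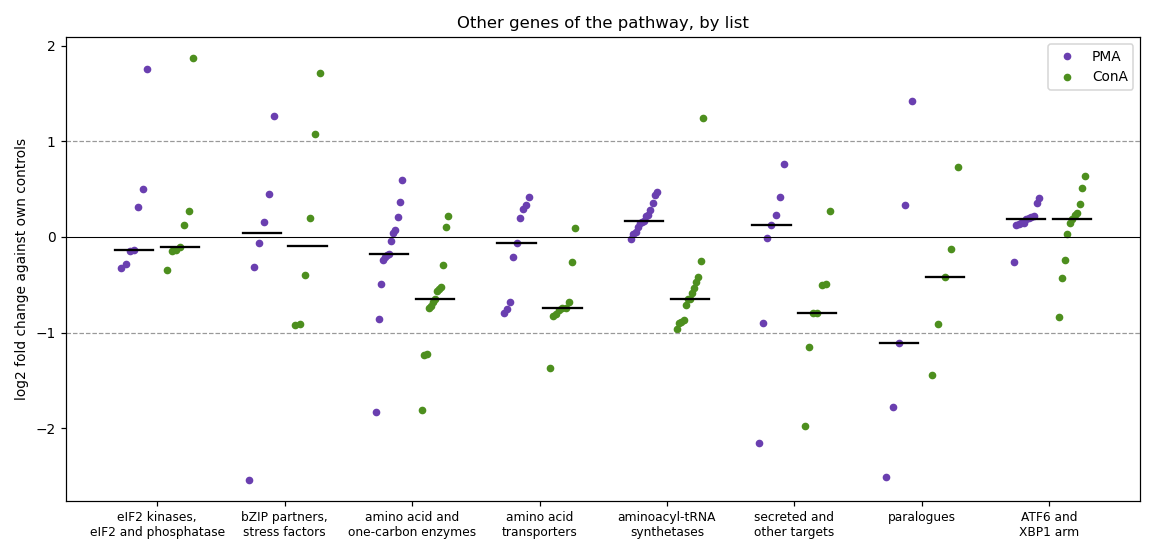
Log2 fold change with PMA (purple) and with ConA (green), each against its own controls, of the tested genes of 8 lists around the pathway, with 1 point per gene and a bar at the median. Dashed lines mark a log2 change of 1 in either direction. For amino acid enzymes, transporters, synthetases and other targets the ConA medians lie between -0.65 and -0.79, and for the ATF6 and XBP1 arm the median is 0.19.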

How the data were processed

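Polyadenylated RNA of HT1080 cells was measured in 12 libraries, grouped by the labels. The authors deposited 1 table per experiment of signal values, which are normalized counts per gene symbol, scaled for each table alone. The submitters' processing notes name STAR, Bowtie2, Partek, DESeq2, hg19 and mm10 without their role. Other steps of counting are not given in the sources used here. Of values between 5 and 60, 79.3% to 81.9% became whole reads within a tolerance of 0.01 under the best factor per library, so whole reads could not be recovered and no model for read counts was fitted. The depth (33642786 to 45581099 estimated reads on genes) is that of the best factors.

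The tests were made with limma 3.58.1 in R 4.3.3 on log2(normalized count + 1), with moderated variances and a trend, for genes that averaged 10 normalized counts or more. Fold changes on this scale understate those of low genes. Benjamini-Hochberg adjustment ran over all genes tested. The stricter call needed a log2 change of 1 or more in size at an adjusted p of 0.0001 or less, and a second threshold was an adjusted p of 0.05 or less at any fold. The difference between treatments was a contrast over all 12 libraries for genes listed in both tables. For single genes, exact permutation of 3 against 3 libraries has 0.1 as its smallest p and was not used. No test of a gene list was run. Besides the 10 genes, the text names, of each pathway list, the 3 genes with the largest change among those called with each treatment, and the 3 genes nearest to the gene with the largest change. MARS1, HERPUD1, CD3E, CD3G, IL7R and NT5E were named after their values had been seen.

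The 10 genes, the lists and the thresholds were chosen with earlier results of these data known. The alternatives were pseudocounts of 0.1 and 10, no filter or a filter at a mean of 50, 2 other scalings (quantile normalization, median centring), limma without a trend or with robust moderation, a joint fit of the 12 libraries, a call at an adjusted p of 0.05, a block for the replicate number, and omission of each library. Equal library totals were added after the data had been seen. The test was tried on simulated data with known changes. Promoter windows came from RefSeq (GRCh38.p14), where 9 of the 10 genes matched, and gene overlaps from GENCODE 29. Apart from these RefSeq windows no coordinates are given, since the role of the builds named for the tables is not stated. Python 3.11.15 with pandas 2.3.3, numpy 2.4.6 and matplotlib 3.10.9 produced the tables and plots.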

Additional observations from a re-analysis of the deposited data

Results flagged for a closer look

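The change with PMA and the change with ConA differed past the stricter threshold (absolute log2 difference of at least 1 at an adjusted p of 0.0001 or less, limma over all 12 libraries) for 7 of the 10 genes. The change with PMA minus that with ConA was 1.06 for DDIT3, 1.10 for ASNS, 1.04 for SHMT2, 1.51 for TRIB3, 1.71 for CHAC1, 1.72 for SESN2 and 1.21 for DDIT4. Of all genes tested, 10.6% passed this threshold. For DDIT3, ASNS and SHMT2 the call was lost under some settings given in the report.

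The pathway genes named by rule were picked for a large called change with PMA or with ConA in these data. A large difference is thus partly built into their choice. Among them, the same difference was positive for PPP1R15A (1.89, adjusted p = 1.45e-14), TRIB1 (1.55, adjusted p = 3.68e-11), CTH (1.81, adjusted p = 3.85e-11) and VLDLR (1.28, adjusted p = 4.41e-09). It was negative for EIF2AK2 (-2.15, adjusted p = 7.00e-12), NUPR1 (-1.63, adjusted p = 4.42e-07), ATF5 (-1.27, adjusted p = 3.50e-10), WARS1 (-1.20, adjusted p = 1.24e-11), ATF3 (-1.14, adjusted p = 3.00e-09) and SESN3 (-1.08, adjusted p = 3.86e-06). SESN3 lost the call without PMA control 3 (-0.93), under quantile normalization (-0.90) and without a variance trend (adjusted p = 0.000228). Each treatment has its own controls and its own table, so treatment and experiment cannot be told apart in these values. A check for single outlying libraries was not made, since it needs at least 4 samples in a group.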

How the results depend on the processing

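Of the values and calls of the 10 genes recomputed under the alternatives, 544 kept their direction and their side of the stricter threshold, 20 lost the call, 4 gained it and 2 turned direction. The 2 were ATF4 with PMA under quantile normalization (-0.092) and with equal library totals (-0.064). The number of the 10 genes called with PMA was 1 and became 0 at a pseudocount of 10, with quantile normalization, with median centring and with equal library totals, and ranged from 0 to 1 when a library was left out. Without a variance trend 1 of the 10 was called with ConA in place of 5, and over all genes 867 in place of 1310 were called with PMA and 662 in place of 1318 with ConA. The cause was not tested. For the difference between treatments 4 in place of 7 were called with quantile normalization and with equal library totals. Equal library totals moved the median of all genes with PMA by 0.12 downward, to -0.12, against which the median of the 10 genes was -0.14. Genes called with PMA were then 503 higher and 874 lower in place of 611 and 699, and for the difference between treatments 340 higher and 1428 lower in place of 551 and 1036.

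With the replicate number as a block in the PMA table, 1 of the 10 genes was called, 8 passed the 0.05 threshold and 1264 genes were called over all. Libraries with the same number deviated together only weakly (correlations of -0.06, 0.10 and 0.10 over genes), and the numbers were taken to pair nothing. No paired analysis was possible because groups share no replicate numbers in the ConA table, nor then for the difference between treatments. With 3 libraries a group, depth was not the limit for these genes, whose levels were 587 normalized counts or more in each library.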
